A study of Mus musculus with 24 samples.

Results

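Semaphorins, plexins and neuropilins are described here in brown and white fat of mice on 3 diets. The set holds 30 genes of the 19057 genes named on the array, with 19 semaphorins, 9 plexins and 2 neuropilins. They were found by symbol, and the set was chosen by way of Sema4b, whose diet difference in brown fat was known from these arrays. These genes have 79 of the 45281 probes, and each gene is read from the probe that was brightest on average across the 24 arrays. Sema4b's diet differences in brown fat are therefore a description with no test, and those of the other members in brown fat are treated the same way.

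RNA came from male C57Bl/6J mice whose food was a low fat diet, a corn oil high fat diet (here corn oil) or an EPA/DHA high fat diet (here EPA/DHA). EPA and DHA are the long-chain omega-3 fatty acids eicosapentaenoic and docosahexaenoic acid. Brown fat (BAT, for brown adipose tissue) and white fat (WAT) were each measured on 4 Illumina arrays per diet, which gives 6 groups and 24 arrays. The mice were picked to stand for their diet group in body weight and plasma lipids. The labels do not name the WAT depot, their extraction text names skeletal muscle although the tissue labels name fat, and they tie no array to a mouse, so p-values measure the spread between these arrays.

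Semaphorins are secreted or membrane-bound guidance proteins, first known from axon growth and later from blood vessels and immune cells. Plexins are their main receptors and act inside the cell on small GTPases and the cytoskeleton. Neuropilins are co-receptors that pair with plexins for the secreted class of semaphorins and also bind growth factors of the VEGF family. In fat, the family is met on endothelial cells, nerve fibres, macrophages and adipocytes.

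Values are log2 expression with a floor near 7, and a difference is the first group's mean minus the second's, with ± its standard error. A variance-stabilised scale, which would understate changes of dim probes, is possible from what the sources used here state, and no folds are given. A difference passed when limma's adjusted p (Benjamini-Hochberg, over all probes kept) was under 0.05. Of the 30 members, 25 lay high enough to be tested in WAT, 23 in BAT and 26 in at least 1 tissue. The filter took probes above the 40th percentile of a tissue's means, 7.11 in both. Sema3a, Sema3e and Sema4g passed it in WAT alone and Sema6c in BAT alone, so a tissue difference of these 4 is conditioned by the filter.

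The tissues carried their defining markers. The brown adipocyte score, the mean of 7 genes including Ucp1, ran from 11.32 to 12.42 in BAT and from 7.82 to 9.95 in WAT. In 2 WAT arrays Ucp1 was above 9, at 9.38 in corn-oil replicate 4 and at 10.63 in EPA/DHA replicate 2. Other cells' markers also set the tissues apart. The skeletal muscle score spread from 7.75 to 12.28 among BAT arrays against 7.43 to 7.83 in WAT, and the liver score from 9.95 to 12.82 in WAT against 7.18 to 8.97 in BAT. BAT low-fat replicate 2 stood apart, with a mean correlation of 0.969 with the other BAT arrays, the lowest of all. In such bulk samples fewer cells of a type and less RNA per cell cannot be told apart.

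The promoters of Sema4b and Sema5a are shown because these members had the largest tissue differences in opposite directions on the low-fat diet. The stretches are the 250 bases before each annotated start, 5′ to 3′ on the gene's strand, from RefSeq on GRCm38.p6. Sema4b has entries for 2 starts, at chr7:80186620-80186869 and chr7:80198338-80198587 on the plus strand. Sema5a has 1, at chr15:32244563-32244812 on the plus strand. Capitals mark letters that match the GC box GGGCGG or the E-box CACGTG on either strand, overlapping matches included.
Sema4b, first start: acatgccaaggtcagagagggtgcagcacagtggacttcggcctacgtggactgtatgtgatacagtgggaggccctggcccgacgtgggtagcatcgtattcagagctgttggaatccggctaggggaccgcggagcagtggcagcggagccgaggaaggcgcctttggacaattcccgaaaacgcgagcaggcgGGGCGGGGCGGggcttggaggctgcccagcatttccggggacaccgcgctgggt
Sema4b, second start: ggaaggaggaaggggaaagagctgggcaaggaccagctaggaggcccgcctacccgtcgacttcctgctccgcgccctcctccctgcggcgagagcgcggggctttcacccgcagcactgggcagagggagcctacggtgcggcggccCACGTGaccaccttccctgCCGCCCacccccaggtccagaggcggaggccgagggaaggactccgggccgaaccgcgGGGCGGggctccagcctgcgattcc
Sema5a: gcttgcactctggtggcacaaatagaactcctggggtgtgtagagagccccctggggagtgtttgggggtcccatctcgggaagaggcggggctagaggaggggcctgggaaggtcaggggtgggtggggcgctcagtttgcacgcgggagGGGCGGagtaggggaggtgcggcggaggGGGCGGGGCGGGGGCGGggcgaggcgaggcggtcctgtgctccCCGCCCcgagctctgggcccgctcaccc
The Sema4b stretches hold 2 GC-box matches each, those of the first start overlapping, and the second also holds the E-box match. The Sema5a stretch holds 5 GC-box matches, 3 of them in 1 unbroken run of capitals. The CCAAT box CCAAT and the TATA box TATAAA had no match in the 3 stretches. By GC content the stretches lie at 64.4%, 72.4% and 72.0%, against a median of 52.4% over all 32851 mouse promoters of the table. Of those promoters 32.7% hold a GC box, 6.02% the E-box, 33.8% a CCAAT box and 12.4% a TATA box. Entries were found for 25 of the 30 members, with 36 starts, of which 27 hold a GC box, 2 the E-box, 7 a CCAAT box and 0 a TATA box. A match describes letters and is no binding site, and a link of matches to tissue differences was not tested.

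Among the secreted class 3 semaphorins, Sema3f, a ligand of neuropilin-2, was the one well above the floor, with group means from 7.80 to 8.52. Sema3b ran from 7.35 to 7.51 and Sema3g, another neuropilin-2 ligand, from 7.21 to 7.31. Sema3c, a neuropilin ligand known from the heart's outflow tract, lay at 7.11 to 7.14 in BAT and 7.37 to 7.44 in WAT. Sema3a, the classic repellent of growing axons, reached 7.20 in low-fat WAT, and Sema3e, the ligand that binds plexin-D1 without a neuropilin, 7.16. Sema3d had no group mean above 7.07 and was not tested. Most of this class therefore lay where the array resolves little.

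Among the membrane-bound semaphorins, Sema4b, Sema4a and Sema5a lay well above the floor in at least 1 tissue. Sema4a, known from T-cell priming, had group means from 9.40 to 9.54. Sema6a, a ligand of plexin-A2 and plexin-A4, ran from 7.39 to 7.90, Sema6b from 7.40 to 7.63 and Sema6d, a plexin-A1 ligand, from 7.40 to 7.64. Sema4c, Sema4d (CD100, the plexin-B1 ligand), Sema4f, Sema4g and Sema6c had group means between 7.07 and 7.35. Sema7a, held in the membrane by a GPI anchor and a ligand of plexin-C1 and integrins, ran from 7.71 to 8.09.

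Of the receptors, Nrp1, the co-receptor for class 3 semaphorins and VEGF, had group means from 10.84 to 11.20, and Nrp2 from 7.25 to 7.60. Plxnd1, a plexin known from endothelial cells, ran from 8.76 to 9.75, Plxna2 from 8.32 to 8.74 and Plxnb2, a receptor of Sema4c and Sema4g, from 7.31 to 8.22. Plxna1, Plxnb1 and Plxnc1 stayed between 7.11 and 7.23. Plxna3, Plxna4 and Plxnb3 were near the floor everywhere, with no group mean above 7.11, and were not tested. Levels of different genes rest on different probes and are not ranked against each other.

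**Figure D1:**
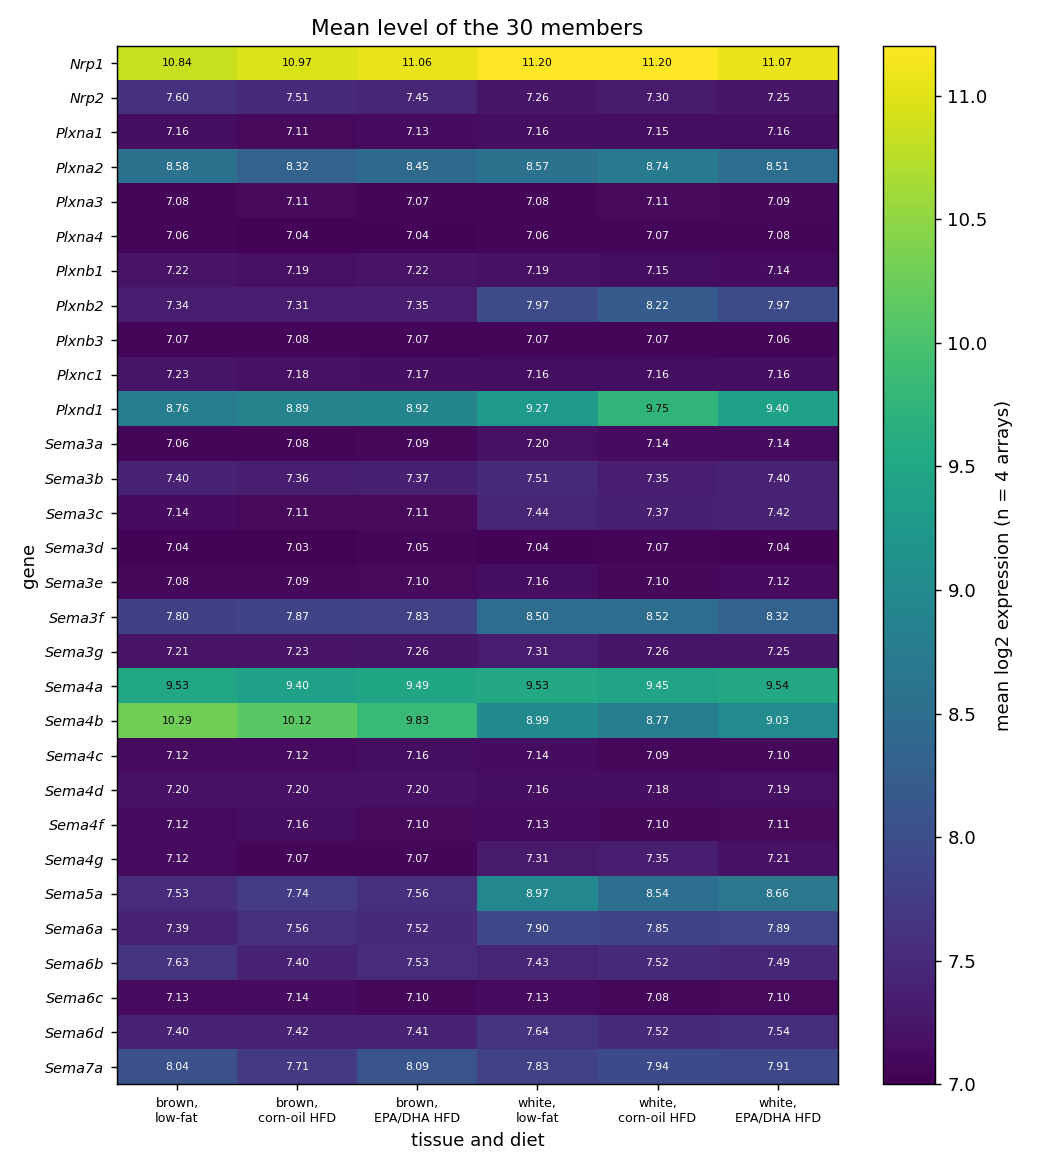
Mean log2 expression of the 30 members (rows) in the 6 groups of tissue and diet (columns), each cell the mean of 4 arrays, with the colour scale running from 7 to the highest mean. Nrp1, Sema4b, Sema4a and Plxnd1 stand out from the floor in all groups, and Sema5a and Plxnb2 are brighter in white fat.

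Sema4b was the member whose brown-fat values led to this set. In BAT it read 10.20, 10.37, 10.31 and 10.28 on the low-fat diet, 10.21, 10.05, 10.09 and 10.14 on corn oil, and 9.85, 9.92, 9.84 and 9.70 on EPA/DHA. The EPA/DHA arrays lay below all arrays of both other diets, and the corn-oil and low-fat arrays overlapped. The EPA/DHA minus low-fat difference was -0.47 ± 0.05, the EPA/DHA minus corn-oil difference -0.30 ± 0.05 and the corn-oil minus low-fat difference -0.17 ± 0.05. Without the low-fat array that stands apart the first of these was -0.44. The 3 comparisons share arrays and are not independent. The second Sema4b probe, at a mean of 7.21 and so near the floor, gave 0.08 ± 0.05 for EPA/DHA minus low-fat.

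By limma's adjusted p, 1 of the 23 members tested in BAT was called in EPA/DHA against low-fat, and this was Sema4b. Over all 13402 genes the share called there was 0.00746%, which is this 1 gene, and since it chose the set nothing is read from it. Its call was lost when any 1 of the 4 low-fat arrays or EPA/DHA replicate 1, 3 or 4 was left out, while the difference stayed between -0.50 and -0.42. The other BAT comparisons called 0 of 23 members and 0% of all genes by limma, with 3 and 1 of the 22 members other than Sema4b at an unadjusted p under 0.05 for corn oil against low-fat and EPA/DHA against corn oil. Nothing is read from these brown-fat counts either. Beyond Sema4b, Sema7a read 7.82, 8.39, 7.99 and 7.97 on the low-fat diet, 7.60, 7.72, 7.79 and 7.74 on corn oil, and 8.41, 7.97, 8.02 and 7.96 on EPA/DHA. Its corn-oil arrays lay below all others, with differences of -0.33 ± 0.12 from low-fat and of 0.38 ± 0.12 for EPA/DHA minus corn oil. Without the low-fat array that stands apart the former was -0.22. The remaining BAT diet differences ran from -0.26 for Plxna2 to 0.22 for Nrp1, the latter for EPA/DHA minus low-fat and 0.03 without that array.

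White fat gives Sema4b's diet differences in arrays that did not choose it. Sema4b there read 8.99, 8.83, 8.84 and 9.31 on the low-fat diet, 8.67, 8.88, 8.64 and 8.88 on corn oil, and 9.12, 9.02, 8.80 and 9.17 on EPA/DHA. All 3 diets overlapped. None of the differences passed, with -0.23 ± 0.12 for corn oil minus low-fat (limma adjusted p = 0.388), 0.26 ± 0.12 for EPA/DHA minus corn oil (adjusted p = 0.333) and 0.03 ± 0.12 for EPA/DHA minus low-fat (adjusted p = 0.973). The 95% interval of the last ran from -0.22 to 0.29. The EPA/DHA minus low-fat difference was higher in WAT than in BAT by 0.50 ± 0.13, and that of EPA/DHA minus corn oil by 0.56 ± 0.13. Since the brown-fat arrays chose Sema4b, these are descriptions with no test.

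**Figure D2:**
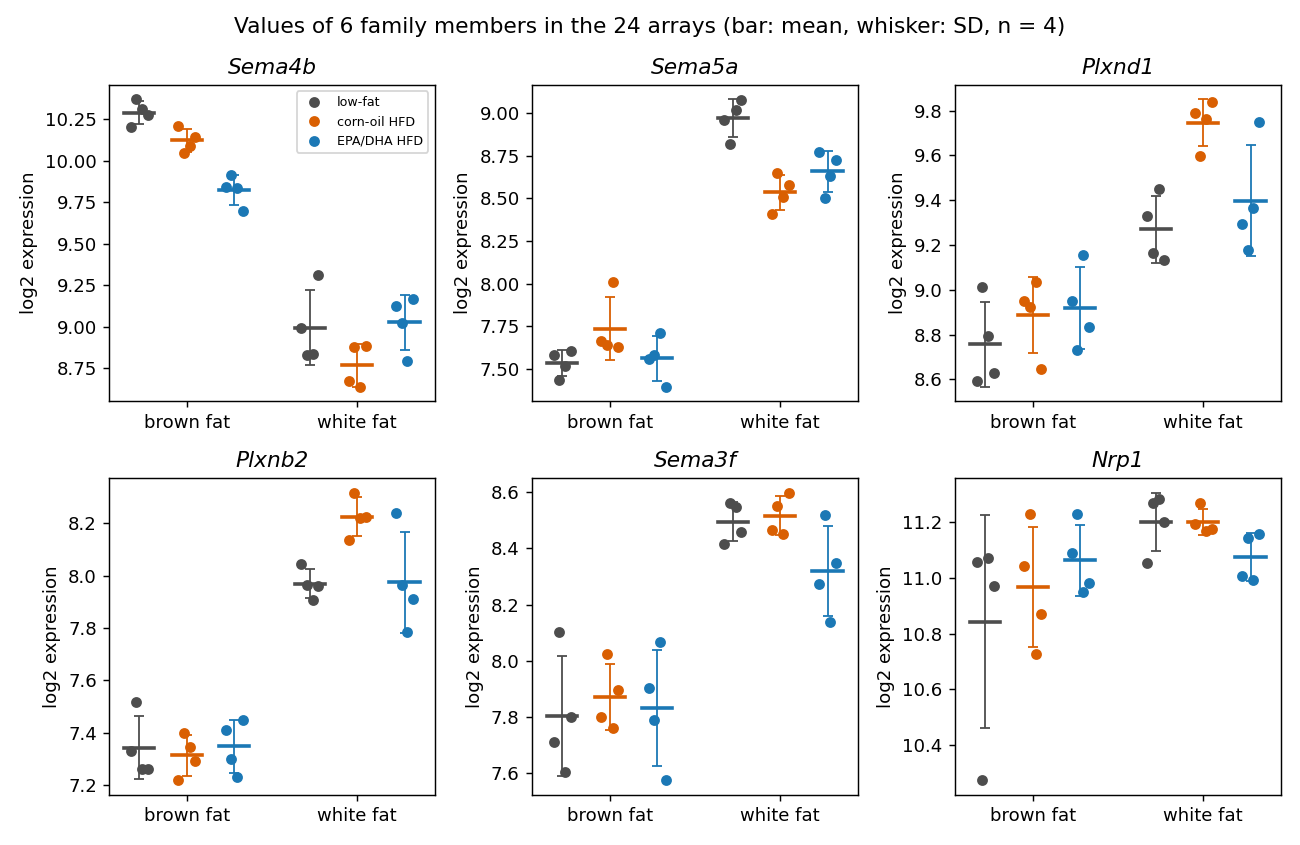
Log2 expression of 6 members in each of the 24 arrays, by tissue and diet, on axes that do not start at 0; points are arrays, thick bars means and whiskers the SD of 4 arrays. Sema4b reads lowest on EPA/DHA in brown fat and lies lower in white fat, where the diets overlap; Sema5a is higher in white fat, with its low-fat arrays above both high-fat groups.

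In white fat on corn oil, Sema5a was lower and 2 plexins had the next smallest p-values. Sema5a, a transmembrane semaphorin with thrombospondin repeats, read 8.96, 8.82, 9.02 and 9.08 on the low-fat diet, 8.41, 8.65, 8.51 and 8.58 on corn oil, and 8.77, 8.50, 8.63 and 8.73 on EPA/DHA. The low-fat arrays lay above all arrays of both high-fat diets, and these overlapped each other. Sema5a fell by 0.43 ± 0.07 on corn oil (limma adjusted p = 0.016), and it passed without any 1 of the 8 arrays (adjusted p at most 0.0499). Without the 2 WAT arrays with raised Ucp1 its difference was -0.45 (adjusted p = 0.0321). A second, dimmer Sema5a probe gave -0.32 ± 0.08 and did not pass (adjusted p = 0.0602), and the others lay near the floor. On EPA/DHA the difference from low-fat was -0.31 ± 0.07, which did not pass (adjusted p = 0.278).

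Plxnd1 read 9.33, 9.17, 9.45 and 9.13 in low-fat WAT, 9.79, 9.60, 9.76 and 9.84 on corn oil, and 9.30, 9.18, 9.37 and 9.75 on EPA/DHA. The corn-oil arrays lay above all low-fat arrays and overlapped the EPA/DHA ones through replicate 4 of the latter. The corn-oil minus low-fat difference of 0.48 ± 0.12 missed the threshold (limma adjusted p = 0.0547), and it passed with a filter at the 60th percentile (adjusted p = 0.0386). A dimmer Plxnd1 probe passed at 0.14 ± 0.03 (adjusted p = 0.0295) and another gave 0.39 ± 0.11 (adjusted p = 0.098). Plxnd1 was -0.35 ± 0.12 for EPA/DHA minus corn oil (adjusted p = 0.169), and without EPA/DHA replicate 4 it was -0.47 and passed (adjusted p = 0.0431).

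Plxnb2 read 8.04, 7.96, 7.91 and 7.96 in low-fat WAT, 8.14, 8.32, 8.22 and 8.23 on corn oil, and 8.24, 7.96, 7.78 and 7.91 on EPA/DHA. All corn-oil arrays lay above all low-fat ones. Neither its corn-oil minus low-fat difference of 0.26 ± 0.08 (limma adjusted p = 0.132) nor the EPA/DHA minus corn-oil difference of -0.25 ± 0.08 (adjusted p = 0.162) passed. Without EPA/DHA replicate 1 the latter was -0.34 and passed (adjusted p = 0.0204). Sema3f, at -0.20 ± 0.07 for EPA/DHA minus corn oil, did not pass at its brightest probe (adjusted p = 0.212), while a dimmer one passed at -0.26 ± 0.06 (adjusted p = 0.0427). The neuropilin Nrp1 was -0.13 ± 0.06 in the same comparison (adjusted p = 0.32), with WAT means of 11.07 on EPA/DHA, 11.20 on corn oil and 11.20 on low-fat. At another bright Nrp1 probe these means were 10.95, 10.97 and 11.22, and at the dimmest 9.08, 9.22 and 9.13. Nrp1's diet differences in WAT therefore depend on the probe.

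In counts, limma called 1 of 25 members in WAT for corn oil against low-fat, where 3.87% of all genes were called. For EPA/DHA against corn oil it called 0 of 25 (5 at an unadjusted p under 0.05), where 2.34% of all genes were called. For EPA/DHA against low-fat it called 0 of 25 (4 at an unadjusted p under 0.05), against 0.03% of all genes. For corn oil against low-fat 7 of 25 were at an unadjusted p under 0.05. The share of all genes at an unadjusted p was not computed, so nothing is read from the unadjusted counts. The median member difference was -0.03 for corn oil minus low-fat, 0.00 for EPA/DHA minus corn oil and -0.03 for EPA/DHA minus low-fat, beside 0.00 over all genes each time. The 3 comparisons share their groups. Beside these, the macrophage score, over 9 of 10 listed genes, ran from 9.23 to 9.59 on low-fat, 9.49 to 9.78 on corn oil and 9.17 to 9.70 on EPA/DHA, and the endothelial score, over 10 of 10, from 9.61 to 9.87, 9.77 to 9.90 and 9.57 to 9.67. No macrophage or endothelial marker passed in corn oil against low-fat by limma, with 3 and 0 of them at an unadjusted p under 0.05. By value, 6 of 9 macrophage and all 10 endothelial markers were higher on corn oil in WAT. In BAT these were 7 of 8 and all 10. In EPA/DHA against corn oil 13 of the 25 members had positive and 12 negative differences at their brightest probes. Plxnd1, Plxnb2, Sema3f and Nrp1 were among the latter. In this comparison 9 of 10 endothelial markers were lower in value. None of the 10 passed by limma, with 6 at an unadjusted p under 0.05, nor did any of 9 macrophage markers, with 1. In BAT 9 of 10 endothelial markers were lower in this comparison as well. The EPA/DHA and corn-oil means there were 8.92 and 8.89 for Plxnd1, 7.35 and 7.31 for Plxnb2, 11.06 and 10.97 for Nrp1, and 7.83 and 7.87 for Sema3f. All these markers were tested in WAT, though the macrophage marker Itgam lay near the floor, with WAT group means from 7.12 to 7.19. The part of the markers in the members' values was not tested.

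**Figure D3:**
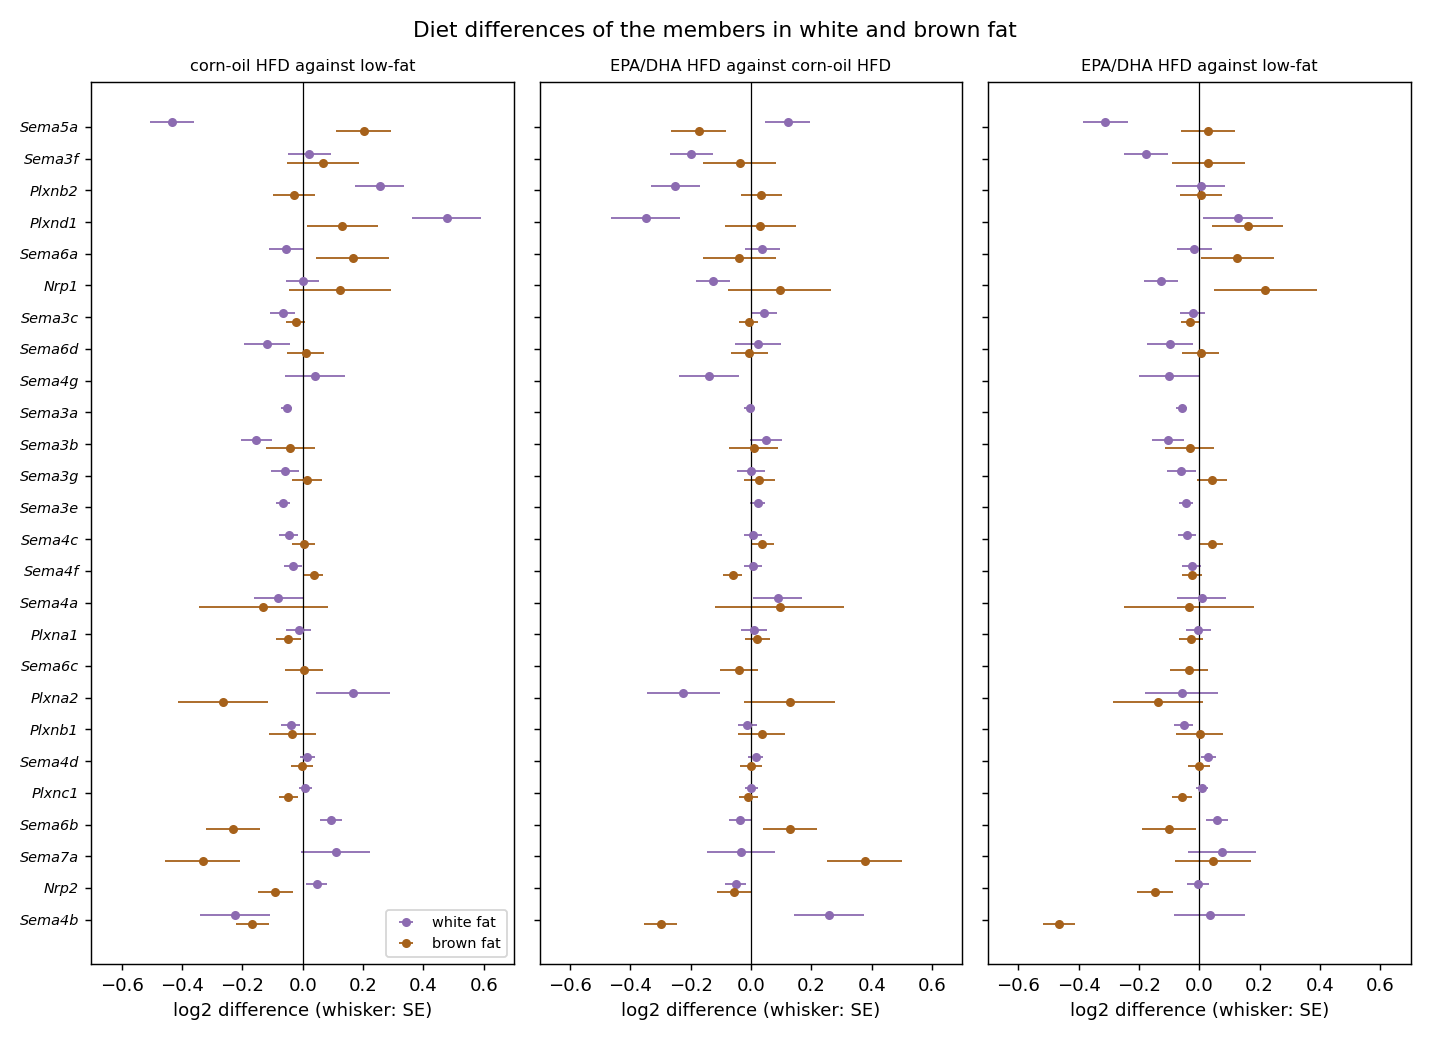
Log2 differences between diets (x axis, with the SE as whisker) of the members tested in white fat and in brown fat, in 3 panels for corn oil minus low-fat, EPA/DHA minus corn oil and EPA/DHA minus low-fat; the genes are ordered by their tissue difference on the low-fat diet. Sema5a and Plxnd1 lie farthest from 0 in white fat on corn oil, at -0.43 and 0.48, and Sema4b in brown fat on EPA/DHA, at -0.47.

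White and brown fat differed in many members, in shares that lay around those of all genes. On the low-fat diet 14 of 26 members passed, Sema4b counted here and on the other diets, 10 higher and 4 lower in WAT, where 43.7% of the 14264 genes tested passed, 23.3% higher and 20.4% lower. Leaving out Sema4b and the members that passed the filter in 1 tissue alone, 11 of 21 (52.4%) were called, 8 higher and 3 lower, beside 46.9% of the genes above the filter in both tissues. Sema5a was 1.44 ± 0.09 higher in WAT (limma adjusted p = 3.64e-11), where its arrays read 8.82 to 9.08 against 7.43 to 7.60 in BAT. Sema4b read lower in WAT, with a difference of -1.30 ± 0.09, and its tissues did not overlap on any diet. A dimmer Sema5a probe gave 1.17 ± 0.08, and that of Sema4b, near the floor, 0.00 ± 0.04. Since Sema4b's brown-fat arrays chose the set, its tissue differences are a description with no test.

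Of the secreted semaphorins on the low-fat diet, Sema3f (0.69 ± 0.10), Sema3c (0.30 ± 0.04), Sema3a (0.14 ± 0.03) and Sema3e (0.08 ± 0.02) were higher in WAT, Sema3a and Sema3e having passed the filter through WAT alone. Sema3f read 8.42, 8.56, 8.55 and 8.46 in WAT against 7.71, 8.10, 7.60 and 7.80 in BAT, and the groups did not overlap. Sema3e lost its call without WAT low-fat replicate 3 (adjusted p = 0.0592). Of the membrane-bound ones, Sema6a (0.51 ± 0.10) and Sema6d (0.24 ± 0.07) were also higher in WAT, while Sema6b (-0.21 ± 0.07) was lower.

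Of the receptors, Plxnb2 was higher in WAT by 0.63 ± 0.08 (limma adjusted p = 1.3e-06), with 7.91 to 8.04 against 7.26 to 7.52. Plxnd1 was higher by 0.51 ± 0.12 (adjusted p = 0.00191) and Nrp1 by 0.36 ± 0.13 (adjusted p = 0.0384). Nrp2, the co-receptor for VEGF-C and Sema3f, was lower in WAT, with a difference of -0.34 ± 0.05 (adjusted p = 8.38e-06), where it read 7.15, 7.27, 7.31 and 7.29 against 7.53, 7.66, 7.55 and 7.65 in BAT. Of the other Nrp1 probes, one with a mean of 10.97 gave 0.46 ± 0.17 (adjusted p = 0.0354) and one with a mean of 9.21 gave -0.03 ± 0.43 (adjusted p = 0.969). Plxnc1 was -0.08 ± 0.02 at its brightest probe and 0.14 ± 0.03 at the other, both past the threshold, so its direction depends on the probe.

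The low-fat tissue calls of 5 members hung on single arrays. Without BAT low-fat replicate 2 the differences of Nrp1, Sema6b and Sema6d were 0.17, -0.12 and 0.17 and did not pass (limma adjusted p = 0.161, 0.121 and 0.0544). Nrp1 read 10.27 in that array against 10.97 to 11.07 in the other 3, and it also lost its call without WAT low-fat replicates 2, 3 or 4 (adjusted p = 0.0845, 0.0903 and 0.066). Plxnc1 lost its call without BAT replicates 3 or 4 (adjusted p = 0.0637 and 0.0769) or WAT replicates 3 or 4 (adjusted p = 0.0624 and 0.0527), Sema6b without WAT replicate 2 (adjusted p = 0.0714) and Sema6d without WAT replicate 3 (adjusted p = 0.052).

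On corn oil 10 of 26 members passed, 8 higher and 2 lower in WAT, beside 41.1% of all genes, 22.8% higher and 18.3% lower. Without Sema4b and the members above the filter in 1 tissue alone these were 8 of 21 (38.1%), 7 higher and 1 lower, beside 43.2%. Plxnb2 was 0.91 ± 0.08 higher (limma adjusted p = 6.84e-09), Plxnd1 0.86 ± 0.12, Sema5a 0.80 ± 0.09, Sema3f 0.65 ± 0.10, Plxna2 0.42 ± 0.14, Sema6a 0.29 ± 0.10, Sema4g 0.27 ± 0.08 and Sema3c 0.26 ± 0.04, Sema4g having passed the filter through WAT alone. Nrp2 (-0.20 ± 0.05) was lower, and Sema4b, given with no test, was at -1.36 ± 0.09. Plxna2 (0.34 without BAT corn-oil replicate 3) lost its call without any 1 of 5 arrays, BAT corn-oil replicates 1 to 3 and WAT corn-oil replicates 1 and 2, with adjusted p-values up to 0.092. Sema6a (0.23 without BAT corn-oil replicate 1) lost it without BAT replicates 1 or 4 or WAT replicates 3 or 4, with adjusted p-values up to 0.0977. Without the 2 WAT arrays with raised Ucp1 both also missed the threshold (0.42 and 0.26, limma adjusted p = 0.0513 and 0.0889).

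On EPA/DHA 8 of 26 members passed, 6 higher and 2 lower in WAT, beside 37.7% of all genes, 20.1% higher and 17.6% lower. Without Sema4b and the members above the filter in 1 tissue alone these were 7 of 21 (33.3%), 6 higher and 1 lower, beside 40.4%. Sema5a was 1.10 ± 0.09 higher (limma adjusted p = 2.86e-09), Plxnb2 0.63 ± 0.08, Sema3f 0.49 ± 0.10, Plxnd1 0.48 ± 0.12, Sema6a 0.36 ± 0.10 and Sema3c 0.31 ± 0.04. Nrp2 (-0.20 ± 0.05) was lower, and Sema4b, given with no test, was at -0.80 ± 0.09. Of the 21 members, the same 7 passed on all 3 diets and 12 on at least 1. The shares of all genes that did so were not computed, and nothing about the family is read from these counts.

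Over the 26 members the shares called were 53.8%, 38.5% and 30.8% on the 3 diets, and the median member difference was 0.05, 0.06 and 0.02, beside -0.01, 0.00 and 0.00 over all genes. Without the BAT low-fat array that stands apart 12 members were called on that diet, and without WAT low-fat replicate 3 it was 10.

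Marker scores of several cell types moved with the tissues as well. On the low-fat diet the stromal score, over 7 genes, ran from 10.38 to 10.57 in WAT and from 8.55 to 8.73 in BAT. The macrophage score lay at 9.23 to 9.59 against 7.63 to 7.84, and the endothelial score at 9.61 to 9.87 against 9.19 to 9.41. All 9 macrophage, all 7 stromal and 7 of 10 endothelial markers were called higher in WAT by limma, while 2 of 5 Schwann cell markers were called lower. The part of these cell types in the members' tissue differences was not tested.

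**Figure D4:**
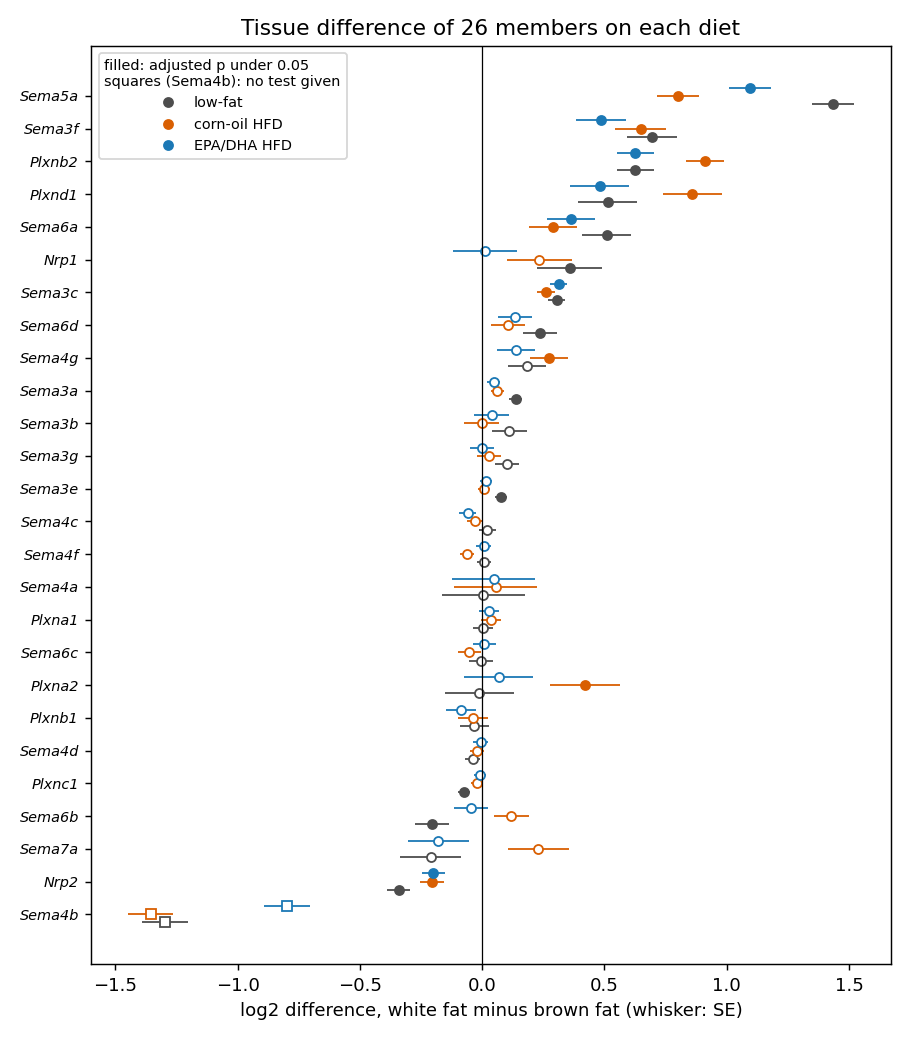
Log2 difference of white minus brown fat (x axis, whisker SE) for the 26 members tested, on the low-fat, corn-oil and EPA/DHA diets; filled points have an adjusted p under 0.05, and the open squares are Sema4b, given with no test. Sema5a, Sema3f, Plxnb2, Plxnd1, Sema6a and Sema3c are filled and to the right of 0 on all diets, and Nrp2 is filled and to the left.

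The diet difference of Sema5a itself differed between the tissues. Corn oil minus low-fat was -0.43 in WAT and 0.20 ± 0.09 in BAT, where the arrays read 7.58, 7.43, 7.52 and 7.60 on low-fat and 7.66, 7.64, 8.01 and 7.63 on corn oil. Without corn-oil replicate 3 the BAT value was 0.11. The WAT minus BAT difference of these was -0.63 ± 0.12 (limma interaction, adjusted p = 0.0207), and -0.54 without that array (adjusted p = 0.028). Without WAT low-fat replicate 4 it was -0.60 and did not pass (limma adjusted p = 0.0572). These values are of the brightest probe. At the second, dimmer Sema5a probe the corn-oil and low-fat means were 8.17 and 8.50 in WAT, and 7.47 and 7.32 in BAT. Sema5a was the 1 member of 26 called, against 0.652% of all genes. For EPA/DHA against corn oil 0 of 26 members passed by limma (5 at an unadjusted p under 0.05), against 0.252% of all genes. For EPA/DHA against low-fat 0 of 26 passed (3 at an unadjusted p under 0.05), against 0.00701%. Those shares rest on adjusted p, so nothing is read from the unadjusted counts. Among the members that missed the threshold in the interaction of corn oil against low-fat were Sema6b at 0.33 ± 0.10 (limma adjusted p = 0.177), Plxnb2 at 0.28 ± 0.11 (adjusted p = 0.304) and Sema7a at 0.44 ± 0.18 (adjusted p = 0.326).

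Genes known to act with the family gave a second view. Of 46 listed symbols 41 had a probe, with Figf an older symbol of Vegfd, and 37 could be tested in each tissue. In WAT for EPA/DHA against corn oil 1 rose and 1 fell, beside the 2.34% of all genes called there. Vegfb, a neuropilin-1 ligand of the VEGF family, read 11.52, 11.49, 11.55 and 11.61 on EPA/DHA and 11.05, 10.89, 11.22 and 11.18 on corn oil, a rise of 0.46 ± 0.09 (limma adjusted p = 0.0366). Cfl1, the actin-severing protein cofilin at the end of the plexin pathway, read 7.53, 7.46, 7.54 and 7.51 against 7.76, 7.64, 7.92 and 7.85, a difference of -0.28 ± 0.06 (adjusted p = 0.0341). Neither group pair overlapped. Vegfb lost its call without any 1 of the 8 arrays (0.39 to 0.50, adjusted p = 0.0508 to 0.0968), and Cfl1 kept it in 1 of 8 such fits, that without corn-oil replicate 2 (-0.33 to -0.24, adjusted p = 0.0163 to 0.0838). Without the 2 WAT arrays with raised Ucp1 they were 0.50 and -0.25 and did not pass, and with no filter Vegfb did not either (adjusted p = 0.0532). The other diet comparisons called 0 of 37 partner genes by limma, with 7 and 2 at an unadjusted p under 0.05 in WAT for corn oil and EPA/DHA against low-fat, and 2, 1 and 1 in BAT. With no share of all genes at an unadjusted p computed, nothing is read from these.

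Vegfb also differed between the tissues in its diet response, with interactions of -0.66 ± 0.14 for corn oil minus low-fat (limma adjusted p = 0.043) and 0.72 ± 0.14 for EPA/DHA minus corn oil (adjusted p = 0.0337), which share the corn-oil arrays. It kept these calls in 3 and 6 of the 16 fits that left out 1 array, with differences from -0.74 to -0.59 and from 0.64 to 0.80. The first was also lost with no filter (adjusted p = 0.0601), with the trended and robust prior (adjusted p = 0.0517) and when both raised-Ucp1 WAT arrays were left out (adjusted p = 0.0699), and the second when those were left out (adjusted p = 0.0596). Between the tissues on the low-fat diet 12 partner genes were higher and 9 lower in WAT of 39 tested, on corn oil 14 and 9, and on EPA/DHA 11 and 6, beside 43.7%, 41.1% and 37.7% of all genes called in either direction. The largest on the low-fat diet were Rras (1.35 ± 0.16), a small GTPase of plexin signalling, Tyrobp (1.02 ± 0.18), the adaptor of plexin-A1 with Trem2, Vegfd (0.86 ± 0.08), Arhgef12 (-0.73 ± 0.07), an exchange factor bound by plexin-B proteins, and Dpysl2 (0.67 ± 0.12), a mediator of the Sema3a signal. On corn oil Tyrobp (1.47 ± 0.18), Rras (1.22 ± 0.16), Trem2 (1.11 ± 0.28), Vegfd (1.11 ± 0.08) and Vegfb (-0.97 ± 0.10) led, and on EPA/DHA Rras (1.30 ± 0.16), Tyrobp (1.15 ± 0.18), Vegfd (1.15 ± 0.08), Trem2 (1.01 ± 0.28) and Arhgef12 (-0.74 ± 0.07). Tyrobp and Trem2 are also macrophage genes, and the macrophage score given above moved with the tissues. The part of macrophages in the partner genes' tissue differences was not tested.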

How the data were processed

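RNA of mouse brown and white fat was measured on 24 Illumina arrays. Per the submitters' processing notes the authors used lumi 2.18.0, and each deposited value is the log2 expression of a probe. Sorted by size, values of different arrays agreed to within 0.00694 when tested on the file, which hides any change in an array's total signal. Whether the scale is a plain or a variance-stabilised log2, and slide and scan batches, are not given in the sources used here, and detection calls were not used here. Values ran from 6.95 to 14.79, no 2 arrays were duplicates (highest correlation 0.99576), and the number of arrays limits the precision.

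Probes were named from the platform annotation, where 34885 have 1 gene symbol, 18 several and 10378 none. Each gene was given by its probe with the highest mean. Diets were compared within a tissue over its 12 arrays, and tissues and interactions over all 24, by limma 3.58.1 in R 4.3.3 with a two-sided moderated test. The filter at the 40th percentile kept 27168 probes per tissue and 29493 in either, over which p-values were adjusted. For Sema4b's tissue differences and interactions no test is given, though counts over all members tested include its tissue calls. Intervals are 95%. The procedure was tested on simulated data, with noise drawn independently for each probe, so array-wide shifts were not simulated. Across the comparisons simulated, 5.49% to 7.03% of the calls were false. Of log2 changes of 0.3, 45.4% to 63.3% were recovered, and of changes of 1, 94% to 98.4%.

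Every member is named, as are all members past the threshold and up to 5 partner genes per comparison. Nrp1, Plxnd1, Plxnb2, Sema3f, Sema6b and Sema7a are also named where they did not pass, chosen after their values were seen. The members, the 46 partner genes and the marker lists were chosen with earlier results of these data known. A marker score averages the log2 values of a list's genes within an array. Besides those in the results, the scores ran from 10.69 to 11.19 in BAT and 11.75 to 12.05 in WAT for adipocyte markers, 8.42 to 8.78 and 8.27 to 8.70 for mural cells, 7.08 to 7.17 and 7.38 to 8.09 for mesothelium, 7.11 to 7.19 and 7.17 to 7.29 for lymphocytes, and 7.64 to 7.93 and 7.41 to 7.74 for Schwann cells (5 of 8 genes with a probe). Alternatives were all probes unfiltered, the 60th percentile as filter, a trended and robust prior, array weights, renewed quantile normalisation, median centring, a replicate block, 1 fit over all 24 arrays, any probe of a gene, and leaving out each array. Leaving out the 2 WAT arrays with Ucp1 above 9 was added after seeing the data.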

Additional observations from a re-analysis of the deposited data

Results flagged for a closer look

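Single arrays of 10 of the 144 combinations of member and group examined lay far from the other 3 arrays of their group. Chance gives this in about 1 in 20 groups. In BAT low-fat replicate 2, Nrp1 was at 10.27 against 10.97 to 11.07 and Sema6a at 7.10 against 7.47 to 7.52. In BAT corn-oil arrays, Sema5a was at 8.01 in replicate 3 against 7.63 to 7.66, Nrp2 at 7.43 in replicate 3 against 7.52 to 7.54, Sema3c at 7.06 in replicate 2 against 7.13, and Sema6c at 7.29 in replicate 4 against 7.08 to 7.09. Sema7a was at 8.41 in BAT EPA/DHA replicate 1 against 7.96 to 8.02. In WAT, Sema4g was at 7.53 in low-fat replicate 1 against 7.21 to 7.26, and Sema6d at 7.67 in corn-oil replicate 3 against 7.46 to 7.48 and at 7.58 in EPA/DHA replicate 3 against 7.53.

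The diet effect of 2 genes differed between the tissues by limma's interaction test. For corn oil minus low-fat, WAT minus BAT was -0.63 for Sema5a (adjusted p = 0.0207) and -0.66 for Vegfb (adjusted p = 0.043). For EPA/DHA minus corn oil it was 0.72 for Vegfb (adjusted p = 0.0337). The Vegfb calls were kept in 3 and 6 of the 16 fits that left out 1 array. Both were lost when the 2 WAT arrays with raised Ucp1 were left out. The Sema5a call was lost without WAT low-fat replicate 4 (limma adjusted p = 0.0572).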

How the results depend on the processing

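Of 35 named differences past the threshold, Sema4b aside, 28 passed under every alternative fit that tested them, other than leaving out 1 array. Among these fits, renewed quantile normalisation and median centring could move values little, as sorted values already agreed between arrays to within 0.00694. Without any 1 array 23 passed, and 0 changed sign. These tallies hold for the brightest probes, as any probe of a gene was used for counts alone, and Plxnc1 changed sign at its other probe. Sema3a and Sema3e were not tested in every fit, and with Sema4g they passed the filter through WAT alone. For WAT corn oil against low-fat, 2 members instead of 1 were called with the filter at the 60th percentile, the trended and robust prior, 1 fit over 24 arrays or any probe, the added one being Plxnd1. For WAT EPA/DHA against corn oil, any probe gave 1 in place of 0, and leaving out 1 array gave 0 to 1. For BAT EPA/DHA against low-fat, where Sema4b is the member called, 0 in place of 1 were called with the trended and robust prior or 1 fit over 24 arrays, and 0 to 1 without 1 array. The interaction of corn oil against low-fat called 0 to 1 without 1 array. The tissue counts without 1 array were 10 to 14 on low-fat, 8 to 10 on corn oil and 8 on EPA/DHA, and under the other alternatives 12 to 14, 9 to 13 and 8 to 9, with 13 and 9 from any probe. Sema4b's WAT difference of EPA/DHA minus low-fat, 0.03, was -0.0203, -0.0178 and -0.0128 without low-fat replicates 2 or 3 or EPA/DHA replicate 4, and up to 0.14 without other arrays. The cause of these shifts was not tested.

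Whether the replicate numbers pair the arrays is not known. In 0 of 15 pairs of groups were all correlations of same-numbered arrays over 0.1 (range -0.356 to 0.544). Between diets, WAT replicate 1 correlated at 0.444 to 0.544 and BAT replicate 4 at 0.356 to 0.433. This check cannot exclude arrays paired by mouse or a shared batch. With the replicate block, BAT EPA/DHA against low-fat called 0 members, Nrp1's low-fat tissue difference (adjusted p = 0.0589) and Cfl1's in WAT (adjusted p = 0.0516) did not pass. Sema4g passed there on the low-fat diet (0.18, limma adjusted p = 0.0355 against 0.0689 without the block), so that count stayed at 14. Since Sema4g passed the filter through WAT alone, its call is conditioned by the filter. The other counts of members called did not change. Nrp1 also missed the threshold with no filter and with array weights (0.22). Signal near the floor of about 7 limits what can be seen of the dimmest members.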
